A study of Drosophila melanogaster with 3 samples.

Results

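The Bsh peaks on the X chromosome of *Drosophila melanogaster* are all peaks that the deposited lists place on X. They number 520, 528 and 552 in replicates 1, 2 and 3, out of 2834, 2838 and 2891 peaks over the 6 chromosomes and arms X, 2L, 2R, 3L, 3R and 4. The only condition analysed here is L4 neurons that expressed Bsh:Dam, a fusion of the homeodomain transcription factor (HDTF) Bsh to the methylase Dam, so all contrasts are between chromosomes and not between treatments. Flies carried the driver R31C06-Gal4, the temperature-sensitive inhibitor Gal80 under a tubulin promoter, a membrane tdTomato and the Bsh:Dam transgene. A move of cool-reared pupae to a warmer temperature switched the transgene on from 46 hr to 76 hr after pupa formation (APF). The 76 hr is an age equivalent at the standard rearing temperature, so the window is not a count of elapsed hours. Laminae were pooled from many pupae whose sex is not given in the sources used here. In Targeted DamID, GATC sites near the bound protein are methylated in the expressing cells, and each of the 3 biological replicates is a log2 ratio of Bsh:Dam to Dam alone, on which the authors called peaks. The native Bsh of L4 was present as well, and cell type rests on the driver, since peak lists hold no marker of it.

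L4 is one of the lamina monopolar neurons of the fly visual system, and Bsh is an HDTF expressed in L4 and L5. Sites bound by such factors often lie in introns and near promoters of genes for cell recognition, excitability and transmission. The X is the sex chromosome of the fly. It carries classic genes of learning, of phototransduction and of channel physiology, along with many HDTF genes of the nervous system.

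A peak score is the value the peak caller gave, relative to Dam, which ranks peaks. The files hold no read count behind a score, so the depth at single peaks is unknown. For replicates 1, 2 and 3 in turn X carried 22.5, 22.8 and 23.8 peaks per Mb, on average 23.04 ± 0.719 (SD, n = 3), where the length is the span from the first to the last listed peak. The autosomes together carried 23.09, 23.05 and 23.34 peaks per Mb. X was thus below the autosomes in replicates 1 and 2 and above them in replicate 3, and the mean difference of −0.119 ± 0.576 peaks per Mb (SD, n = 3) was smaller than its spread (exact sign-flip permutation test over the replicates, two-sided, p = 0.75). With 3 replicates that test cannot give a p below 0.25. Among single arms the mean density ran from 20.9 peaks per Mb on 2L over 21.6 on 3L and 23.6 on 2R to 25.98 on 3R, with X inside this range. Peaks covered 3.87%, 4.14% and 3.98% of the X span, less than the autosomes' 4.2%, 4.25% and 4.06% in each replicate. The mean difference in cover was −0.175 ± 0.141 percentage points (SD, n = 3, exact p = 0.25, the smallest possible). By arm the mean cover was 3.28% on chromosome 4, 3.77% on 2L, 3.84% on 3L, 4.24% on 2R and 4.76% on 3R. X, with a mean of 3.99%, lay inside this range.

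The bulk of X peaks scored like those of other chromosomes, and the highest peak of each replicate was on 2L. The X median was 2.98, 3.06 and 2.81 in replicates 1, 2 and 3, beside autosomal medians of 2.98, 3.08 and 2.77. The difference of X minus autosomes was 0, −0.02 and 0.04, a mean of 0.00667 ± 0.0306 (SD, n = 3, exact sign-flip p = 1), so that its sign was not settled. By replicate, 74.8%, 78.0% and 64.5% of X peaks scored above 2.5, the gene threshold of the study's methods, and 75.9%, 79.6% and 65.0% of autosomal peaks did. X was lower in each replicate, with a mean difference of −1.06 ± 0.523 percentage points (SD, n = 3, exact p = 0.25, the smallest possible). Among single arms X was not the lowest in any replicate. Below it were 2L in replicate 1 (74.79% against 74.81%), chromosome 4 in replicate 2 (72.7%) and 2R in replicate 3 (63.4%). The X mean of 72.4% was still below that of each arm, the next being 2R with 72.96%. A score of 4 or more was reached by 10.2%, 9.66% and 8.33% of X peaks against 11.02%, 12.3% and 7.14% of autosomal peaks, with X the higher of the pair in replicate 3. The highest X peak scored 4.74, 4.68 and 4.86, and the highest autosomal peak, on 2L, 5.38, 5.75 and 5.22. The autosomal maximum is also taken over more peaks. The other large arms reached 5.22, 4.90 and 4.86 (2R), 4.91, 4.93 and 4.75 (3L) and 4.70, 4.91 and 4.76 (3R). X was thus above 3R in replicate 1, below all of them in replicate 2, and above 3L and 3R in replicate 3. Replicate 3 had the lowest median on X and on all 5 other arms, as the plot of scores by chromosome shows.

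**Figure D1:**
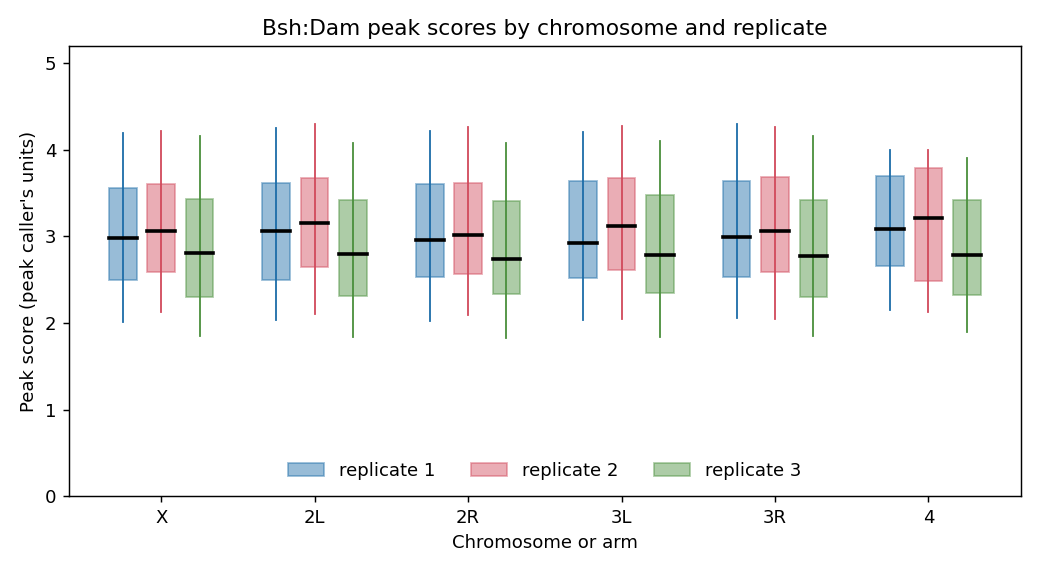
Peak scores (y axis, in the peak caller's units) of each chromosome or arm (x axis) in the 3 replicates. Boxes span the middle quartiles, lines the 5th to 95th percentile, and black bars mark the median; the X medians of 2.98, 3.06 and 2.81 sit beside those of the other arms.

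Most X peaks were found again in the other replicates. In replicates 1, 2 and 3, 85.8%, 84.3% and 80.6% of X peaks shared at least 1 bp with a peak of both others, which averages 83.6% ± 2.65 (SD, n = 3). Over all chromosomes the shares were 83.6%, 83.4% and 81.9%, so X was above this background in replicates 1 and 2 and below it in replicate 3. Merging overlapping peaks gave 625 X regions, of which 445 (71.2%) held a peak in all 3 replicates, 80 in 2 and 100 in 1. Regions held by fewer replicates had lower scores, with a median of 3.09 for those in all 3, 2.39 for those in 2 and 2.20 for those in 1. Of the 100 regions with a peak in a single replicate, 19 came from replicate 1, 29 from replicate 2 and 52 from replicate 3.

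Among the 445 regions, 193 had identical start and end in every replicate. Across shared X regions, which are not independent replicates, Pearson's r of the scores was 0.943 over 471 regions of replicates 1 and 2, 0.905 over 474 of replicates 1 and 3, and 0.897 over 470 of replicates 2 and 3. The score of replicate 2 was above that of replicate 3 in 352 of those 470 regions (74.9%). The SD of a region's score over the replicates had a median of 0.156, and a few regions varied far more. The highest SD, at *Smr*, a nuclear receptor corepressor, does not compare a single site: the peak of replicate 2 (X:12715617–12716267, score 3.85) and that of replicate 3 (X:12718583–12722347, score 2.3) do not overlap, and both overlap the long peak of replicate 1 (score 2.32). It was the only 1 of the 445 regions with no base common to the 3 peaks. The region at *Hsc70-3*, the chaperone BiP of the endoplasmic reticulum, scored 3, 3.06 and 4.31 at X:11804833–11806452. Replicate 3 stands apart there, with a peak that ends earlier, at 11805314. High peaks were also missed in some replicates. A peak at *Pdcd4* (X:13747924–13749056) scored 3.95 and 3.96 in replicates 1 and 2 and had no counterpart in replicate 3. At *trol*, which encodes perlecan, replicates 1 and 3 listed 3.94 and 3.63 and replicate 2 listed no peak at X:2508685–2509568.

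Higher X peaks were shorter. Spearman's rho of score with length was −0.423, −0.488 and −0.427 across the X peaks of replicates 1, 2 and 3, and −0.365, −0.401 and −0.386 across autosomal peaks. These are descriptions across peaks with no p-value. The 47 regions present in all replicates with a mean score of at least 4 had a median length of 947 bp, against 1808 bp for the other regions. Most regions lay within genes. Laid over gene spans of the RefSeq annotation, 284 of the 445 regions (63.8%) lay inside a gene and crossed no gene border, 90 (20.2%) crossed a border and lay inside no gene, 31 (6.97%) did both with different genes, and 40 (8.99%) lay outside gene spans. Exons were not used, so intronic and exonic peaks were not told apart. A single gene lay within 1 kb of 248 regions (55.7%), 2 genes within 1 kb of 139 (31.2%), at least 3 within 1 kb of 33 (7.42%), and none within 1 kb of 25 (5.62%).

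Peaks were spread unevenly along X, and in the same way in each replicate. The 23 full windows of 1 Mb held between 5 and 38 peaks on average, with a median of 24.3. The richest was the window from 1 to 2 Mb, with 38 peaks in each replicate, followed by the window from 2 to 3 Mb with 34, 35 and 38. The poorest were the window from 22 to 23 Mb, with 5 peaks in each replicate, and the window from 4 to 5 Mb with 8, 9 and 10. The largest SD of any window over the replicates was 3.21 peaks, so the gap between the richest and the poorest windows exceeded the spread. The windows from 1 to 2 Mb and from 2 to 3 Mb tied at 38 peaks in replicate 3, and the middle windows overlapped one another. Spearman's rho between a window's mean peak count and its number of annotated genes was 0.386 over the 23 windows, a description without a p-value. The mean of a window's median scores ran from 2.42 to 3.22.

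**Figure D2:**
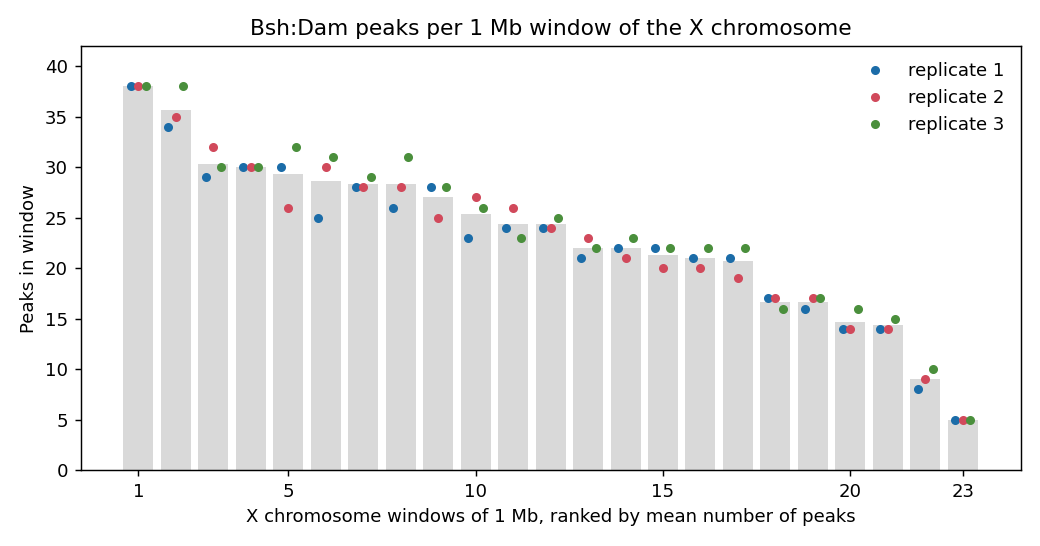
Number of peaks (y axis) in the 23 full windows of 1 Mb on X, ranked by the mean of the replicates (x axis). Bars are means and points the 3 replicates; the counts run from 38 in the richest window to 5 in the poorest, and replicates differ little beside that range.

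Long stretches of X had no peak in any replicate. The longest, X:21606095–22478239, spanned 872 kb and 36 annotated genes, and the next, X:22820104–23431887, spanned 612 kb and 48 genes, among them *stnA* and *stnB*, which encode proteins of synaptic vesicle recycling. Of the transcription factor genes followed below, a few lie in the stretches next in length. A stretch of 381 kb (X:7309268–7690277) with 38 annotated genes holds *ct*, which encodes the HDTF Cut. Another of 352 kb (X:8525140–8876654) with 29 genes holds *oc* and *Lim1*, both HDTF genes, and one of 320 kb (X:20471413–20791275) with 20 genes holds *run*, a Runt family gene. A stretch of 336 kb (X:9835593–10171261) with 32 genes holds none of them. These genes were named after the stretches were seen.

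Elsewhere X peaks came in clusters, taken here as at least 4 peaks with gaps of at most 10 kb. X had 18, 19 and 21 clusters in replicates 1, 2 and 3, with 16.3%, 16.7% and 18.3% of its peaks. The other large arms had from 7.48% of peaks in clusters (2L, replicate 1) to 19.5% (3R, replicate 1), a range that includes X. There were 27 cluster places on X in any replicate, and 12 were clusters in all 3. These 12 were 13.01 to 75.6 kb long and took 59, 60 and 62 peaks, or 11.3%, 11.4% and 11.2% of the X peaks. The window from 1 to 2 Mb held 2 of them and the window from 2 to 3 Mb held 3.

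The cluster with the most peaks covered *vex* (listed as CG42339) at X:10968305–11043875, with 9, 7 and 9 peaks and top scores of 4.01, 3.85 and 3.63. Its peaks spread over the whole gene and most scored well below the top one, with medians of 2.75, 3.03 and 2.32. *SmydA-4* lies at the same cluster. The second cluster, X:1493297–1526891, had 6 peaks in each replicate and top scores of 3.36, 3.56 and 3.27. It lay at *inc*, a Cul3 adaptor that is needed for normal sleep, at *Nmdar2*, an NMDA receptor subunit, and at *Mur2B* and CG14795, and 15 of its 18 peaks over the replicates were within 1 kb of *inc*.

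The cluster at *futsch* (X:1401128–1426964), which encodes a microtubule-associated protein of axons and synaptic terminals, had 5, 6 and 5 peaks with top scores of 3.77, 4.02 and 3.80. Unlike the *vex* cluster it had high medians, 3.41, 3.42 and 3.60. The cluster at *stx* (listed as CG32676), *ras* and lncRNA:CR44766 (X:10720693–10745994) had 5, 5 and 6 peaks and top scores of 4.22, 4.32 and 4.23. At X:13747924–13771496, 5, 6 and 4 peaks lay at *Pdcd4*, *rdgB*, CG32625, *Rtc1* and asRNA:CR43833, with top scores of 4.42, 4.48 and 4.21.

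The other 7 clusters held between 4 and 5 peaks in each replicate. Of these, the cluster at *rut* (X:14791919–14814754) had 4, 5 and 5 peaks, all within 1 kb of *rut*, and its top scores of 4.52, 4.39 and 4.86 were the highest of any cluster in replicate 3. The cluster at *sgg*, the fly GSK3 kinase (X:2639444–2653968), had 4 peaks in each replicate, all at *sgg*, with top scores of 3.74, 3.83 and 3.67. One at *Sxl*, the switch gene of sex determination and dosage compensation, and *fz4*, a Wnt receptor gene (X:7090562–7111361), also had 4 in each, with top scores of 3.65, 3.70 and 3.67. The rest lay at *kirre* and *Syx4*, at CG4766 and *mab-21*, at *Unc-76* and *csw*, and at *mmd* and *Cep164*. All peaks of the *rut*, *sgg*, *stx*, *kirre* and *Unc-76* clusters lay within 1 kb of that gene, *futsch* was the only gene at its cluster, and other clusters had up to 5 genes.

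**Figure D3:**
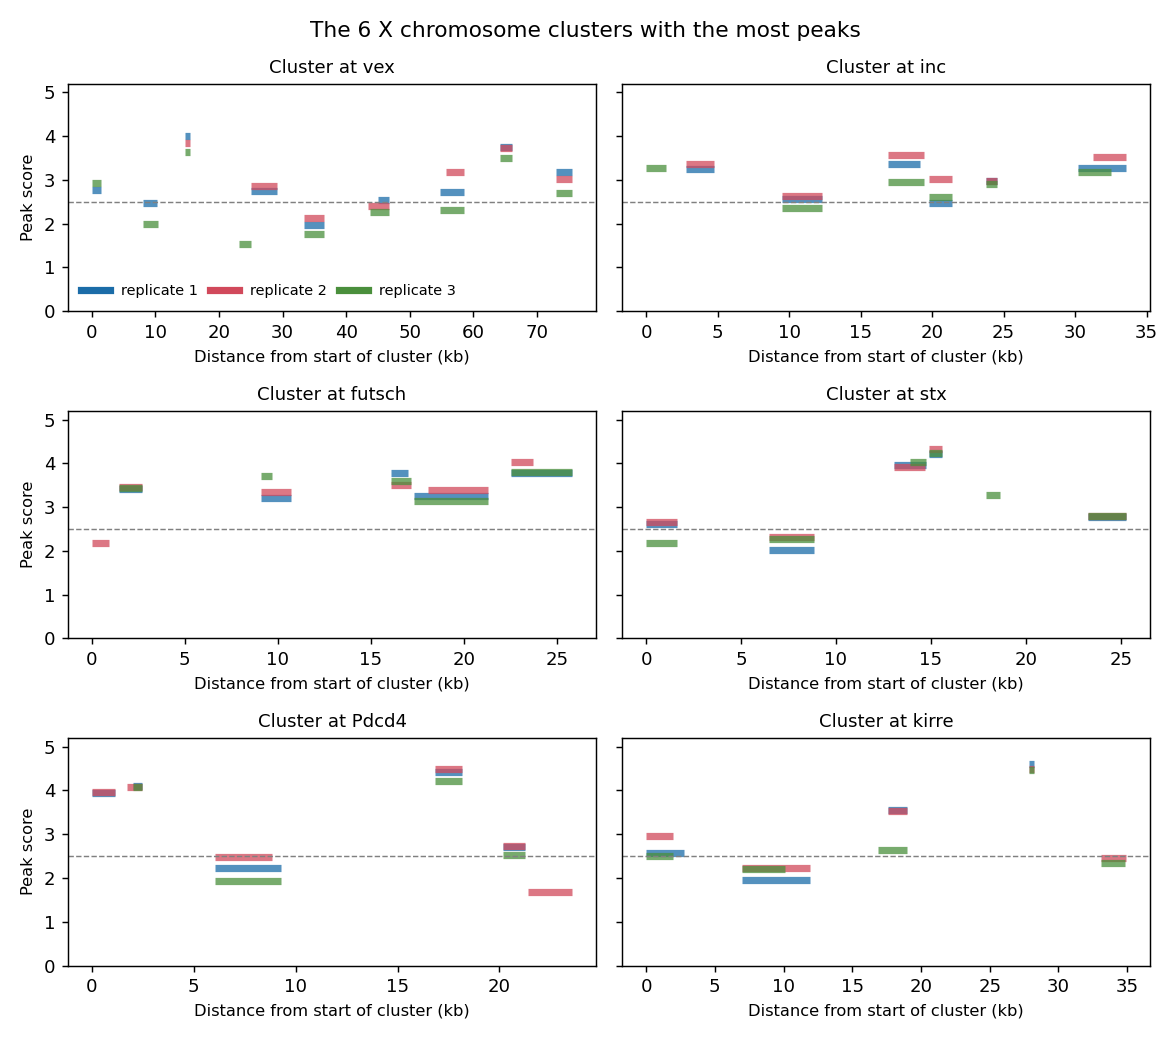
Peaks of the 6 X clusters with the most peaks, drawn by distance from the start of the cluster in kb (x axis) and score (y axis), in blue, red and green for replicates 1, 2 and 3. Each bar is a peak at its true length and the dashed line is a score of 2.5; most peaks recur at the same place in the 3 replicates, and the top peak of the *kirre* cluster, at 4.6, 4.5 and 4.47, is a narrow one.

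The deposited gene lists give the score of each peak within 1 kb of a gene, and a gene was called here if its best peak exceeded a score of 2.5 in each of the 3 replicates. Of 2705 annotated X genes, 543 were listed in any replicate, 413 in all 3, and 330 (12.2%) were called. The share over all 17684 annotated genes was 9.74%, and it was 9.30% on the autosomes. Among the other arms it ran from 7.73% on 2L to 9.91% on 3R, and 13.2% on the small chromosome 4, so that X stood above the 4 large arms and below chromosome 4. By replicate, 14.05%, 14.5% and 13.1% of X genes scored above 2.5 against 11.7%, 12.1% and 10.2% of autosomal genes. The difference of 2.56 ± 0.302 percentage points (SD, n = 3) was positive in each replicate and larger than their spread, and the exact sign-flip test gave p = 0.25, the smallest it can.

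Genes are packed less closely on X, which had 117 annotated genes per Mb against 149 on the autosomes, and X had 19.2, 19.5 and 20.4 peaks per 100 annotated genes against 15.4, 15.4 and 15.6. That difference, 4.22 ± 0.519 peaks per 100 genes (SD, n = 3), was again positive in each replicate (exact p = 0.25). X genes were also longer, with a median of 2063 bp against 1663 bp. Within classes of gene length X remained higher in most, with 4.75% against 4.15% called below 2 kb, 11.4% against 9.20% from 2 to 10 kb, and 32.4% against 27.7% from 10 to 30 kb. From 30 to 100 kb the order turned, with 44.5% on X and 55.3% on the autosomes. Of genes of at least 100 kb, 22 of 26 on X (84.6%) and 28 of 63 on the autosomes (44.4%) were called. Beyond these classes, the part of gene density or length in the difference was not tested.

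The 22 long genes that were called include *kirre*, the teneurin gene *Ten-a*, *dnc*, *shakB*, *mamo*, *Sh* and *rdgA*. The 4 that were not are dpr8, a cell-surface recognition gene that was listed at 2.98 and 2.80 in replicates 1 and 3 and not in replicate 2, and 3 long non-coding RNA genes, lncRNA:CR32773, lncRNA:CR44833 and lncRNA:flam. Several of these spans overlap, as *rg* and CG15465 do with a single shared span in the annotation, so they are not independent.

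The highest-scoring X gene was *raskol*, which encodes a Ras GTPase-activating protein. Its score was 4.74, 4.68 and 4.61 by replicate, with a mean of 4.68 ± 0.0651 (SD, n = 3), and had 3 peaks in each. Next was *rut*, the calcium- and calmodulin-responsive adenylyl cyclase of associative learning, with 4.52, 4.39 and 4.86 (4.59 ± 0.243). *Raf*, the MAP kinase kinase kinase of Ras signalling, followed with 4.68, 4.4 and 4.5 (4.53 ± 0.142), and *kirre*, an immunoglobulin adhesion protein, with 4.6, 4.5 and 4.47 (4.52 ± 0.0681). The order among these 4 is not settled, since *rut* is the lowest of them in replicate 2 and the highest in replicate 3.

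*cac*, the pore-forming subunit of the presynaptic calcium channel, and *gd*, a serine protease of embryonic patterning, share the peak X:11984618–11985802 with 4.50, 4.44 and 4.52. It is the most even of the 12 top genes' scores, with an SD of 0.0416. *IntS6*, of the Integrator complex, and the helicase gene *Rtel1* share a peak of 4.55, 4.55 and 4.34. *Rbcn-3A*, a regulator of the vacuolar proton pump, scored 4.4, 4.21 and 4.82, and CG33639 scored 4.58, 4.63 and 4.10. These last ones differ most between replicates, *Rbcn-3A* being high and CG33639 low in replicate 3. *shakB*, an innexin of electrical synapses, scored 4.42, 4.46 and 4.31, and *rdgB*, a phosphatidylinositol transfer protein of photoreceptors, 4.42, 4.48 and 4.21. Over the 12 genes the means lie between 4.37 and 4.68. The top and bottom of the list did not overlap, since the lowest score of *raskol*, 4.61, is above the highest of *rdgB*, 4.48, while neighbours in the list did.

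**Figure D4:**
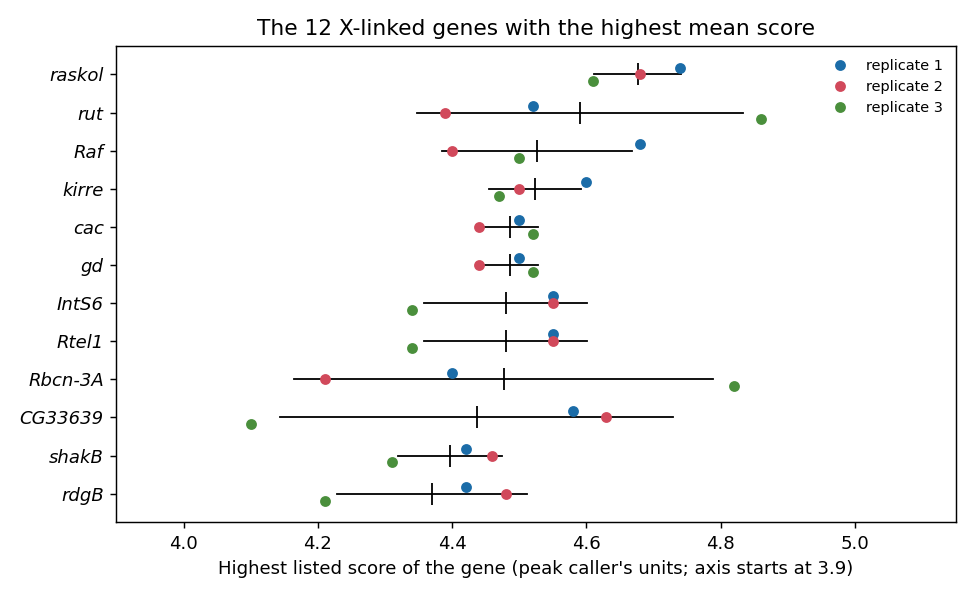
Highest listed score (x axis, in the peak caller's units, starting at 3.9) of the 12 X genes with the highest mean. Points are the 3 replicates, ticks the mean and lines ± 1 SD; *raskol* leads with 4.74, 4.68 and 4.61, and the ranges of neighbouring genes overlap.

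Of the 330 called genes, 230 had only 1 peak in the replicate with the fewest, 50 had 2, 26 had 3 and 24 had 4 or more. The gene with the most listed peaks was *kirre*, with 10, 10 and 11 over its 394 kb. CG43867 had 7, 8 and 9 peaks over 120 kb, and *Mnr* (listed as CG32521) had 7, 7 and 9 over 75.9 kb. *vex*, with 8, 6 and 8 over 72.2 kb, and lncRNA:CR44357, with 7, 7 and 8 over 239 kb, followed with 22 each over the replicates. After them came CG43658 with 21, *shakB* with 20 and the nuclear receptor gene *Hr4* with 19, or 6, 6 and 7. The number of peaks and the highest score were separate measures, as *Hr4* reached 3.33, 3.38 and 3.01 with many peaks, *cac* 4.5, 4.44 and 4.52 with 1 peak in each replicate, and *kirre* was high in both.

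Genes of 8 functional groups were followed across X, 139 genes in all, of which 46 were called. Called shares were 7 of 11 for phototransduction, cAMP and clock genes, 11 of 22 for recognition and guidance, 4 of 8 for RNA-binding proteins, 7 of 20 for ion channels and gap junctions, 6 of 18 for synaptic terminal and vesicle genes, 3 of 10 for neurotransmitter and peptide receptors, 5 of 30 for transcription factors and 3 of 20 for signalling pathways. All are above the 9.74% of all annotated genes, but 12.2% of X genes were called, and signalling pathways (15%) and transcription factors (16.7%) lie near that share. The groups were also chosen with earlier results of these data known. They hold long genes, and 155 of the 395 X genes of at least 10 kb (39.2%) were called. Of group members of at least 10 kb outside transcription factors, 35 of 67 (52.2%) were called, and of transcription factor genes of that length 5 of 17. These members were not matched for length to the 395 genes, of which 259 are 10 to 30 kb long. The called share of X genes was 32.4% in that class, 44.5% from 30 to 100 kb and 84.6% from 100 kb up. The 10 kb limit and the setting apart of transcription factors were chosen after the values were seen, and no test was run over these lists. The 35 called genes include the arginase gene *arg*, which shares its peak with *elav*.

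**Figure D5:**
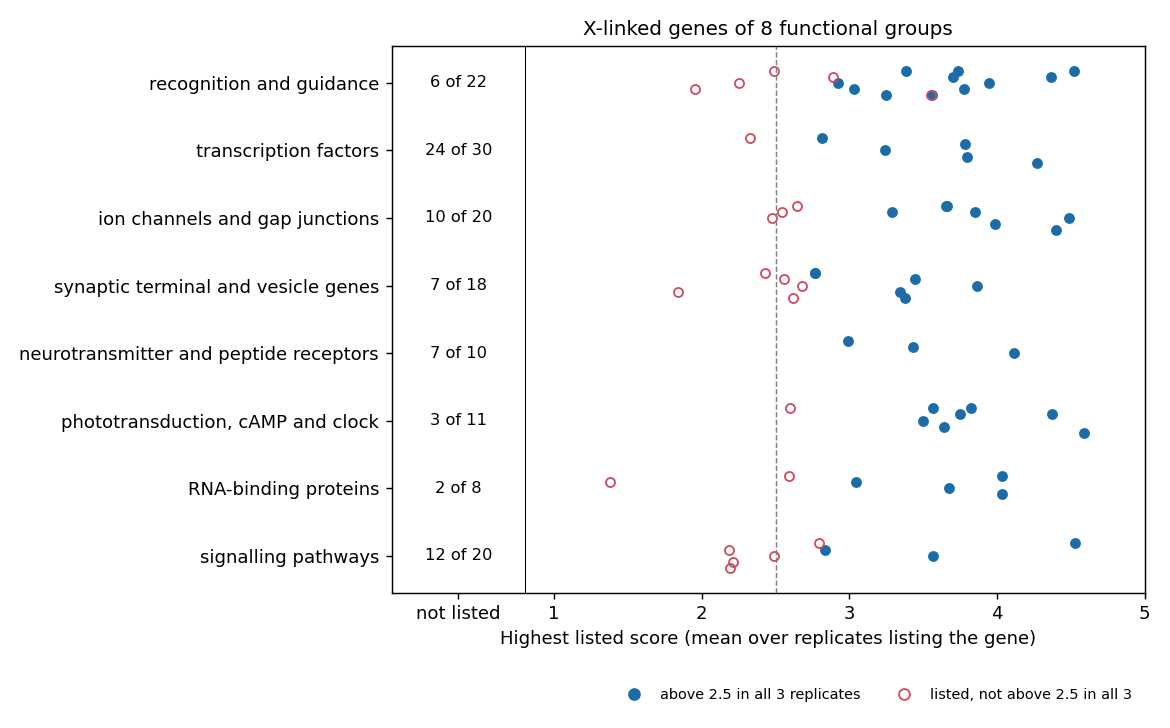
Highest listed score of the X members of 8 functional groups (x axis, mean over the replicates that list the gene), 1 point per gene and 1 line per group. Filled points are genes above 2.5 in all 3 replicates, open points other listed genes, the dashed line is 2.5, and the left column counts members that no replicate lists, which is 24 of 30 for transcription factors; over all X genes 2162 of 2705 are unlisted.

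The phototransduction, cAMP and clock genes had the highest called share of the 8 groups, 63.6%. Of these 11 genes 8 are at least 10 kb long, and all 7 called ones are among those 8. Beside *rut* and *rdgB* they include *rdgA*, the diacylglycerol kinase of photoreceptors, with 3.98, 3.80 and 3.70, and *sgg* with 3.74, 3.83 and 3.67. *dnc*, the cAMP phosphodiesterase of associative learning, scored 3.71, 3.59 and 3.62 with 4, 4 and 5 peaks. Both the enzyme that makes cAMP in learning and the one that breaks it down thus carried several peaks in each replicate. The members that no replicate lists are *norpA*, the phospholipase C of phototransduction, the clock gene *per* and the kinase gene *S6kII*.

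Among recognition and guidance genes, *kirre* was followed by *Appl*, the fly amyloid precursor protein-like gene, with 4.28, 4.45 and 4.36, by the receptor tyrosine phosphatase gene *Ptp10D* with 3.40, 4.26 and 4.17, and by *Ten-a* with 3.85, 3.82 and 3.65. *Ptp10D* was thus low in replicate 1 only. *rst*, the close relative and neighbour of *kirre*, was listed in each replicate at 2.36, 2.54 and 2.57 and missed the threshold in replicate 1. The immunoglobulin gene DIP-beta scored 3.62, 3.71 and 3.78 with 1, 2 and 1 peaks, while DIP-alpha, dpr18 and *Ptp4E* were not listed. The nearest peak of any replicate lay 18.9 kb from DIP-alpha and 88.0 kb from *Ptp4E*.

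Of the RNA-binding proteins, *elav*, the pan-neuronal splicing regulator, scored 4.06, 4.28 and 3.76, from a peak it shares with the arginase gene *arg*. *arg* stood in the same list although it encodes no RNA-binding protein, and without it 3 of 7 were called. *Sxl* scored 3.65, 3.70 and 3.67 and *fne*, a relative of *elav*, 3.12, 3.15 and 2.86. The scores of *Sxl* are among the most even, with an SD of 0.0252. *Imp* and *snf* were not listed in any replicate.

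The channel genes were led by *cac* and *shakB*. SK, a calcium-activated potassium channel, scored 3.98, 4.18 and 3.79, and *Sh*, the voltage-gated Shaker potassium channel, 3.94, 3.86 and 3.75. The voltage-gated sodium channel gene *para* was called too, with 3.77, 3.81 and 3.38. The potassium channel genes *eag* and Ork1 and the Shaker beta subunit gene *Hk* were not listed. For *Hk* a peak lay 1.67 kb away, just past the 1 kb rule. Of the gap junction genes, *shakB*, which spans 166 kb, was called. The much shorter *ogre*, Inx2, Inx5, Inx6 and Inx7, of 1.95 to 17.7 kb, were not listed. Over all X genes 79.9% were unlisted.

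The called synaptic terminal and vesicle genes had the lowest median score of the 8 groups, 3.36, close to the 3.43 of the 3 called receptor genes. The SD over replicates reached 0.417 for *Unc-76*, so the order of these groups is not settled. After *futsch* came Frq2, a neuronal calcium sensor, with 3.47, 3.64 and 3.22, *Unc-76*, a kinesin adaptor, with 2.98, 3.33 and 3.81, and Vap33, an endoplasmic reticulum contact protein, with 3.46, 3.26 and 3.30. Of these, *Unc-76* differed most between replicates and was highest in replicate 3. The dynamin gene *shi*, the NSF gene *comt*, and *stnA* were not listed, and the nearest peak to *stnA* was 161 kb away. Among the receptors, Pdfr, the receptor of the clock peptide PDF, with 4.34, 3.76 and 4.25, AstA-R1, an allatostatin receptor, with 3.33, 3.65 and 3.32, and Dop2R, a dopamine receptor, with 3.33, 2.97 and 2.68 were called. All 7 others, such as CCKLR-17D1, CCKLR-17D3 and Proc-R, were unlisted, which is 70% of the group beside 79.9% of all X genes. Of receptor genes of at least 10 kb, 2 of 5 (40%) were unlisted, beside 45.3% of X genes of that length.

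Of the transcription factor genes 24 of 30 (80%) were unlisted, the same share as over all X genes, of which 2162 of 2705 (79.9%) were unlisted. Among those of at least 10 kb, 11 of 17 (64.7%) were unlisted, beside 179 of 395 X genes of that length (45.3%), and no test was run. The called ones were *Cph* (listed as CG9650), a zinc finger gene, with 4.22, 4.41 and 4.18, *mamo*, also of the zinc finger class, with 3.95, 3.82 and 3.62, the LIM-only gene *Bx* with 3.91, 3.94 and 3.49, *Hr4*, and the TEAD gene *sd* with 2.70, 3.13 and 2.61. None of the 5 encodes an HDTF. The ecdysone response gene *br* was listed at 2.29, 2.40 and 2.29, below the threshold in each replicate. The HDTF genes *ct*, *oc*, *Lim1*, B-H1, B-H2, *acj6*, *vnd* and *exd* were all unlisted. For the 24 unlisted genes the nearest peak lay 4.71 to 105 kb away, with a median of 35.7 kb, and 3 of them had a peak within 10 kb. Of the signalling genes, *Raf*, the Smad gene *Smox* with 3.60, 3.62 and 3.48, and the phosphatase gene *csw* with 2.74, 2.95 and 2.81 were called. The 12 of 20 that were unlisted (60%, below the 79.9% of all X genes) include *N* (Notch), *arm* (beta-catenin) and *dsh* (Dishevelled). Among signalling genes of at least 10 kb the order turned, with 4 of 7 (57.1%) unlisted beside 45.3% of X genes of that length, and no test was run.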

How the data were processed

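Targeted DamID of Bsh in L4 neurons gave 1 group of 3 biological replicates. The authors checked reads with FastQC 0.11.9 and ran the damidseq pipeline for log2 ratios over Dam. They called peaks per replicate with find_peaks (FDR below 0.01 and a set minimum quantile) and listed genes within 1 kb with peaks2genes. The deposited values are a score and an FDR for each peak and a score for each line of a gene list. The aligner is Bowtie2 per the study's resource list. The genome build and the Dam library of each replicate are not given in the sources used here. No read counts were used, so depth, intervals and count tests were not computed, and p-values measure the spread of these 3 samples only.

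Peak overlap, clusters, gene calls and exact sign-flip permutation tests were computed with numpy 2.4.6 and scipy 1.17.1 in Python 3.11.15, and figures with matplotlib 3.10.9. Overlaps and clusters were first tested on simulated data. RefSeq (assembly Release 6 plus ISO1 MT) gave gene spans and current symbols. Of 3129, 3093 and 3206 names in the gene lists, 2735, 2694 and 2791 matched 1 gene, 375, 378 and 391 are transcript names of non-coding genes, left out as repeats of a gene or unmatched, and 19, 21 and 24 others had no single match. All 715, 731 and 755 lines of X genes had a peak of the same score within 1 kb of that span.

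The X peaks and the gene groups were chosen with earlier results of these data known. Named genes are the 12 with the highest mean score, up to 4 called and 3 unlisted members of each group, and genes of the 5 clusters with the most peaks and of the 5 highest peaks; other names, such as those of the remaining clusters, long genes and peak-free stretches, were chosen after values were seen. Of the listed group genes, 2 are not on X and were dropped. Alternatives were a score above 2.5 or FDR below 0.001 for peaks, an overlap of 50%, other cluster rules and gene thresholds, other score summaries, annotation spans, and leaving out each replicate.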

Additional observations from a re-analysis of the deposited data

How the results depend on the processing

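The X density of 23.04 peaks per Mb fell to 16.7 with a score above 2.5 and 15.9 with FDR below 0.001, since fewer peaks were used. The difference in median score between X and the autosomes, 0.00667, had no settled sign: it was −0.045 with FDR below 0.001, −0.0141 as a difference of means, −0.0333 as a median over bases covered, and −0.01 to 0.02 with 1 replicate left out (negative without replicate 3). The share of X peaks in both other replicates, 83.6%, was 72.5% with an overlap of 50% of both peaks, 80.8% with FDR below 0.001 and 87.2% to 90.2% with 1 replicate left out, where only 1 other list must match. The 12 clusters became 4 with gaps of 5 kb, 31 with gaps of 20 kb, 35 with at least 3 peaks, 3 with a score above 2.5, 4 with FDR below 0.001, and 13 to 15 with 1 replicate left out. The 330 called genes became 209 with a threshold of 3 and stayed between 334 and 422 under the other gene settings. Of the group counts, whose alternatives were chosen after seeing the data, 1 moved by over 1.5 times: the 6 synaptic terminal and vesicle genes became 3 with a threshold of 3 and 10 with at least 1 of 3 replicates. No paired analysis was possible because 1 group leaves no other group to pair it with; X and the autosomes were compared within each replicate. Depth behind single peaks is unknown.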

Other observations

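Non-coding genes on X were called as well. Of 241 annotated long non-coding RNA genes 18 (7.47%) were called, of 70 antisense RNA genes 11 (15.7%), and of 58 miRNA genes 3 (5.17%), beside 296 of 2197 protein-coding genes (13.5%). The miRNA gene mir-210 and lncRNA:CR32553 were listed with the same scores of 4.52, 4.37 and 4.01, and mir-2496 and lncRNA:CR45478 with 4.29, 4.17 and 4.29. The third called miRNA gene, mir-31b, scored 3.39, 3.70 and 3.27. These names can reflect a peak shared with a neighbouring gene. The dosage compensation RNA gene lncRNA:roX2 was listed at 1.95 and 1.77 in replicates 1 and 3 and not in replicate 2. Its scores are the same as those of *nod*, CG11695 and *pkm*.

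Some of the highest X peaks have no gene within 1 kb and so appear in no gene list. The region X:13342132–13343546 scored 4.39, 4.63 and 4.38, as high as the 12 top genes, and lies 1.12 kb from CG15747 and 1.34 kb from lncRNA:CR45708. X:14668205–14668842 scored 4.24, 4.32 and 4.05 and lies 10.7 kb from CG5321 and 14.3 kb from *NetA*, a Netrin gene that no replicate lists. X:20071754–20072620 scored 4.25, 4.02 and 4.19 and lies 9.05 kb from Dop2R and 17.9 kb from lncRNA:CR45628. A peak of the *futsch* cluster, X:1402597–1403819, scored 3.41, 3.45 and 3.43 and lies 5.25 kb from *futsch* and 5.26 kb from *Rilpl*.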
